A study of Homo sapiens with 6 samples.

Results

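Expression of 10 genes of neuropeptide signaling and secretory granules was examined in a human breast cancer cell line of the triple negative type, MDA-MB-231, with and without the multi-kinase inhibitor EC-70124. The genes are the peptide precursors SPX, VIP, NPY and PENK, the granins SCG2, SCG3, SCG5, CHGA and CHGB, and the receptor gene GRPR, and they are 10 of the 18417 genes measured. They were chosen by their gene family together with the measured difference between treated and control cells, so that this difference is a description here, with no p-value of its own. The series compares 3 control samples with 3 samples treated with EC-70124 at 500 nM for 24 h. All came from the same cell line, grown in DMEM with fetal bovine serum. The sample titles say no more than "control" of the control group, and the paper calls these cells untreated. Each sample was hybridized to a single Affymetrix Human Gene ST array, and the values are model-based expression indices (MBEI), which are probe set intensities on a linear scale. Every one of the 10 genes is represented by 1 probe set. Probe sets differ in how strongly they bind, so changes are read between arrays for the same gene. Levels set across genes, as in the ranking of dim genes and the summed lists, are only a rough description. As RNA came from whole cultures, fewer expressing cells and less RNA per cell cannot be told apart.

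In neuroendocrine cells, peptide hormones are made as long precursors, packed with granins into dense-core granules, cut by prohormone convertases and released when calcium rises. Spexin, the product of SPX, is a peptide hormone that acts on galanin receptors. The vasoactive intestinal peptide (VIP), neuropeptide Y (NPY) and the enkephalins cut from PENK act on receptors of their own, and GRPR is the receptor for gastrin-releasing peptide, a mammalian relative of bombesin that stimulates growth of several tumor types. Many neuropeptide genes carry a cAMP response element, the binding site of CREB, in their promoter. The repressor REST keeps many neuronal genes, granins among them, silent in other cells.

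The 6 arrays resembled each other over all probe sets, with Pearson's r of the log2 values of 0.990 to 0.993 inside the groups and 0.979 to 0.984 across them. The mesenchymal markers of this cell line had mean control intensities of 13827 for VIM, 10098 for CD44 and 9830 for AXL, of which CD44 and AXL fell to 8265 and 8163 in treated cells. The hormone receptor genes ESR1 and PGR and the epithelial cadherin gene CDH1 were among the 30% of genes with the lowest mean log2 signal. CDH1 rose from 156 to 178 (log2 fold change 0.19, adjusted p = 0.0490, limma), a call lost in 8 of the other settings (adjusted p = 0.0604 to 0.154, limma). ERBB2 was not called, with a mean control intensity of 1486. EPCAM, another epithelial marker, was not among the dimmest genes, with means of 381 in control and 416 in treated samples, and was not called. Of all genes, 34.5% passed the test used throughout (limma, adjusted p under 0.05). Of 9 measured leukocyte and endothelial markers none did, and 8 were among the dimmest genes too. Their summed intensity was 2009 to 2064 in the control arrays and 1907 to 2065 in the treated arrays. The table used here gives no detection measure, so a dim probe set cannot be separated from one without target RNA.

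SPX was the peptide gene with the widest separation. Its intensity was 109, 98.0 and 98.4 in the control samples and 2428, 2305 and 3402 in the treated samples. The lowest treated value was 21.2 times the highest control value, and the control samples differed among themselves by a factor of no more than 1.11. The log2 fold change was 4.72 (standard error 0.14), a ratio of 26.3 between the geometric means of the groups, and SPX ranked 1 of 18417 genes in size of rise. With 50 added to each intensity before the logarithm, which damps dim values, the log2 fold change was 4.17. VIP, a peptide that relaxes smooth muscle and raises cAMP in its target cells, had intensities of 66.4, 66.9 and 52.9 in the controls and of 327, 345 and 927 after treatment. All treated values lay above all control values, and the third treated sample lay 2.76 times above the mean of the other two. The log2 fold change of VIP was 2.93 (standard error 0.36), 2.44 without that sample and 2.23 with the offset of 50. The promoter windows of both genes are shown because these genes rose most among the peptide precursors. They are the RefSeq windows (GRCh38.p14) from 250 bases before to 50 bases after the listed start, on the plus strand at chr12:21527702-21528001 for SPX and at chr6:152750547-152750846 for VIP, with matches to 5 short motifs described below in capitals.
SPX: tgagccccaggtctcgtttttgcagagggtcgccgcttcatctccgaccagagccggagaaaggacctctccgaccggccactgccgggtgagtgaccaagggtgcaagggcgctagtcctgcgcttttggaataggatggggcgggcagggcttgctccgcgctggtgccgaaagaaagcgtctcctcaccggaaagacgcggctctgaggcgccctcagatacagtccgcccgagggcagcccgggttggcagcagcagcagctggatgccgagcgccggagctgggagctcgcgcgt
VIP: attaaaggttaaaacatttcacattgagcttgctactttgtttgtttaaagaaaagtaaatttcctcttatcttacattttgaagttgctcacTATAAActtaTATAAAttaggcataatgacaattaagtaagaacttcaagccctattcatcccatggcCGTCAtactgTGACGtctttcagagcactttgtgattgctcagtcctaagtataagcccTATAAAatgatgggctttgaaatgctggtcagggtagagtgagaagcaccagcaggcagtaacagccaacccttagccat

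The groups of the other peptide precursors overlapped. NPY, which in the brain drives feeding, had intensities of 353, 357 and 354 in control and 322, 335 and 374 in treated samples. PENK, the precursor of the enkephalins, had 324, 302 and 373 in control and 328, 304 and 343 in treated samples. The treated values of PENK lay among the control values, and those of NPY lay on both sides of its narrow control range. The log2 fold changes were -0.05 for NPY (standard error 0.07) and -0.03 for PENK (standard error 0.09).

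Among the granins, SCG2 differed between the groups and the other members did not separate them. SCG2 encodes secretogranin II, a granule protein from which the neuropeptide secretoneurin is cut. Its intensity was 77.7, 74.3 and 63.4 in the control samples and 793, 761 and 735 in the treated samples. The treated samples lay close together, within a factor of 1.08, and the lowest of them was 9.45 times the highest control. The log2 fold change was 3.41 (standard error 0.08), rank 2 of all genes in size of rise, and 2.74 with the offset of 50. SCG3, which links other granins to the granule membrane, had intensities of 135, 111 and 142 in control and 103, 127 and 105 in treated samples. SCG5, a chaperone of the prohormone convertase PCSK2, had 263, 282 and 254 in control and 260, 220 and 258 in treated samples. The groups of SCG3 and SCG5 overlapped, with log2 fold changes of -0.21 and -0.12. CHGA, chromogranin A, the most widely used serum marker of neuroendocrine tumors, had intensities of 378, 379 and 439 in control and 383, 331 and 380 in treated samples. CHGB, chromogranin B, had 522, 479 and 419 in control and 535, 464 and 394 in treated samples. For these genes as well the groups overlapped, with log2 fold changes of -0.13 for CHGA and -0.03 for CHGB. The window of CHGA (GRCh38.p14, plus strand, chr14:92922900-92923199) is shown because it holds a full cAMP response element and the groups of its gene overlapped.
CHGA: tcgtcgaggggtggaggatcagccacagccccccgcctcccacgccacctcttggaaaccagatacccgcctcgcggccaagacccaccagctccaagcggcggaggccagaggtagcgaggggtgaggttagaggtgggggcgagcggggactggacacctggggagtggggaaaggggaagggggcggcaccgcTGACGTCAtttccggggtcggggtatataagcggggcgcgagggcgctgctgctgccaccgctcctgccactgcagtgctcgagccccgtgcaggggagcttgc

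GRPR was the member that was lower after treatment. Its intensity was 2146, 2197 and 2064 in the control samples and 346, 378 and 519 in the treated samples. The lowest control value was 3.98 times the highest treated value, and as in VIP and SPX the third treated sample was the highest of its group. The log2 fold change was -2.39 (standard error 0.14), so that the geometric mean of the controls was 5.24 times that of the treated samples, rank 4 of all genes in size of fall. Its promoter window lies on the plus strand at chrX:16123315-16123614 (GRCh38.p14) and is shown as that of the member with the opposite direction.
GRPR: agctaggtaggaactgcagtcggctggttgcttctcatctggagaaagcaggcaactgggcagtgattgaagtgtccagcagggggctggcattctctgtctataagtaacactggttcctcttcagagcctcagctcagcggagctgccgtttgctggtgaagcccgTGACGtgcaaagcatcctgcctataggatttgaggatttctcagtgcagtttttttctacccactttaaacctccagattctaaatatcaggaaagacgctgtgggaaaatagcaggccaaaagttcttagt

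**Figure D1:**
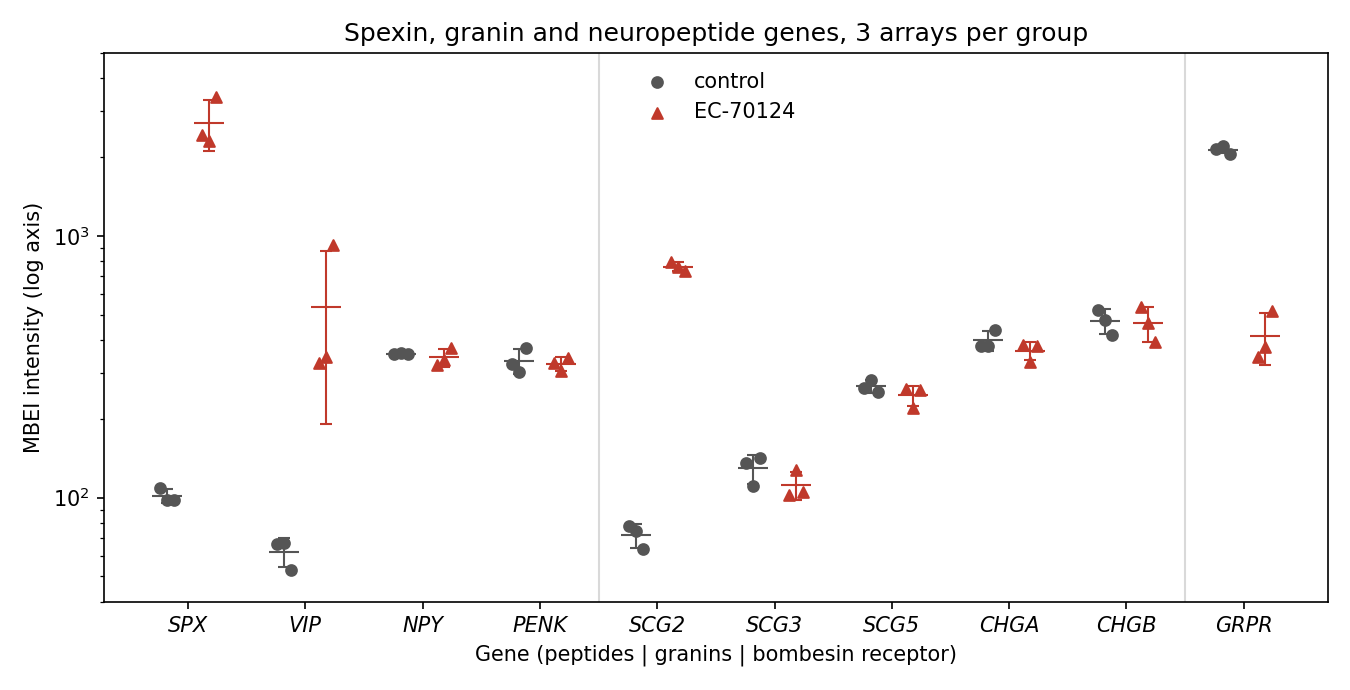
MBEI intensity (y axis, log scale) of the 10 genes (x axis) in 3 control samples (circles) and 3 samples treated with EC-70124 (triangles), with horizontal marks and bars for the mean ± SD. SPX, VIP and SCG2 are higher in every treated sample, GRPR is lower in every treated sample, and the groups of the other 6 genes overlap.

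Counted together, 4 of the 10 genes were past an adjusted p of 0.05 from limma, 3 of them higher and 1 lower, and the same 4 had groups that did not overlap. Over all genes 34.5% were called, 19.7% as higher and 14.8% as lower, and 47.6% had groups that did not overlap, 25.6% with the treated samples above and 22% with them below. Because the members were chosen with this contrast, nothing is read from their count. A call together with a change of at least 2-fold upward was made for 2.01% of all genes and downward for 0.69%. The median log2 fold change of the 10 genes was -0.04, against -0.0045 over all genes. The 6 genes that were not called had log2 fold changes between -0.21 and -0.03 and intensities between 103 and 535. Leaving out the 30% of genes with the lowest mean log2 value over the 6 arrays kept SPX, CHGA, CHGB, NPY and GRPR. It removed SCG2, SCG3, SCG5, VIP and PENK. SCG2 and VIP fell below the limit of the filter, a geometric mean intensity of 332, through their low control values. The treated values of SCG2, 735 to 793, lay above that limit. The control values of SPX, 98.0 to 109, also lay below it, and SPX was kept through its treated values. PENK was removed although its mean lay near the limit.

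Treated samples differed in how far the changed genes had moved. Relative to the control mean on the log2 scale, SPX was higher by 4.58, 4.50 and 5.07 in treated replicates 1, 2 and 3, and VIP by 2.41, 2.48 and 3.91. SCG2 was higher by 3.47, 3.41 and 3.36, so that replicate 3 was not the highest there. In GRPR the differences were -2.63, -2.50 and -2.04. Over all genes, replicate 3 had a median log2 difference of -0.01 from the other treated arrays. The arrays had been normalized to each other, so this median cannot show that replicate 3 was like the others. Without it 6835 genes were called, against 6353 with all arrays and 5172 to 5580 without any other single sample. Replicate 3 was more than 2-fold above the other treated arrays for 14 genes, against 5 for replicate 1 and 1 for replicate 2. VIP ranked 3 among all genes in this difference. Of the 370 genes called and at least 2-fold higher, 8 were more than 2-fold above the others in replicate 3 and none in replicate 1 or 2.

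Genes with a similar course were looked for by the Euclidean distance between the 6 log2 values, each gene centred on its control mean. Nearest to SPX were SCG2 itself (distance 2.32), TNFRSF9 (2.48), ABCC9 (2.68), AKNAD1 (3.05) and CHAC1 (3.17), and no gene matched the size of its rise. As SPX rose most of all genes, its nearest genes are mainly other large rises. Treated replicate 3 was the highest treated sample in TNFRSF9, ABCC9 and AKNAD1, as in SPX, but the lowest in SCG2 and CHAC1. Nearest to VIP were SLAMF7 (0.46), ABCC9 (0.66), RERGL (0.82), INSC (0.83) and ANKRD18B (0.91). RERGL, a small GTPase of the RAS family, had intensities of 90.8, 89.4 and 89.2 in control and 458, 405 and 825 in treated samples. INSC, an adaptor protein of cell polarity, had 144, 143 and 141 in control and 696, 647 and 1306 in treated samples. ANKRD18B had 120, 121 and 137 in control and 548, 517 and 1242 in treated samples. In all 5, as in VIP, treated replicate 3 lay well above the other treated samples. The comparison rests on 6 arrays of 2 groups, and the likeness is a description.

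**Figure D2:**
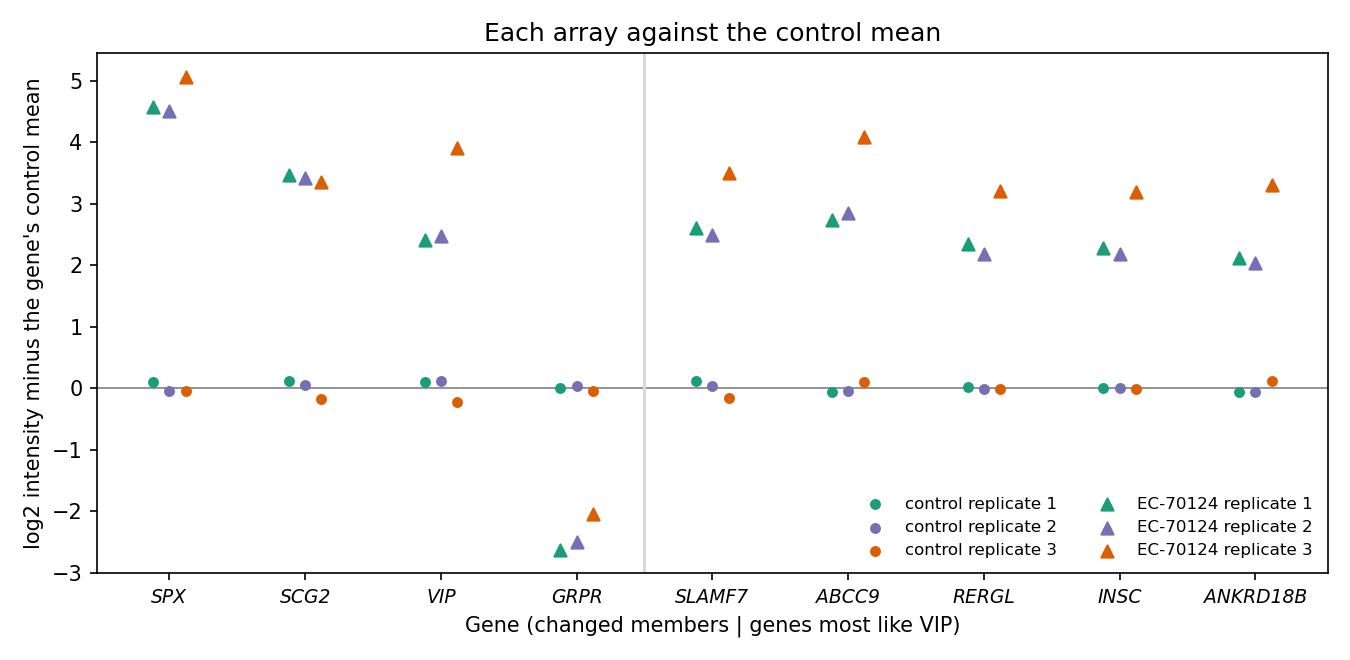
Log2 intensity of each array minus the gene's control mean (y axis) for the changed members and the 5 genes most like VIP (x axis), with circles for control and triangles for EC-70124 replicates, colored by replicate number. Replicate 3 of the treated group lies above the other treated samples for VIP (3.91 against 2.41 and 2.48) and its 5 nearest genes, but not for SCG2.

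The promoter windows were searched on both strands for the full cAMP response element (TGACGTCA), its short form (CGTCA, which the full form contains on each strand), the AP-1 site (TGANTCA), the C/EBP-ATF response element used by ATF4 and CHOP (TGATGNAAN) and the TATA box (TATAAA). Windows were found for 7 of the 10 genes, SPX, SCG3, SCG5, CHGA, VIP, NPY and GRPR. The full element was present in CHGA alone of these 7, at -54 to -47 from the start, and in 1.85% of all 35116 windows. The short form stood in VIP at -89 to -85 and, on the other strand, at -79 to -75, in GRPR at -82 to -78, in SCG5 at -17 to -13 and in SCG3 at -4 to 0, and in 24.6% of all windows. VIP also had 3 TATA boxes, the nearest at -30 to -25, a motif found in 11.5% of windows. None of the 5 motifs was found in the windows of SPX and NPY. The AP-1 site and the C/EBP-ATF element, present in 7.71% and 3.61% of all windows, were in none of the 7. The GC content of the windows was 37.3% in VIP and 66.3% in SPX, against a median of 58.7%. These matches describe the letters of the windows and not binding.

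**Figure D3:**
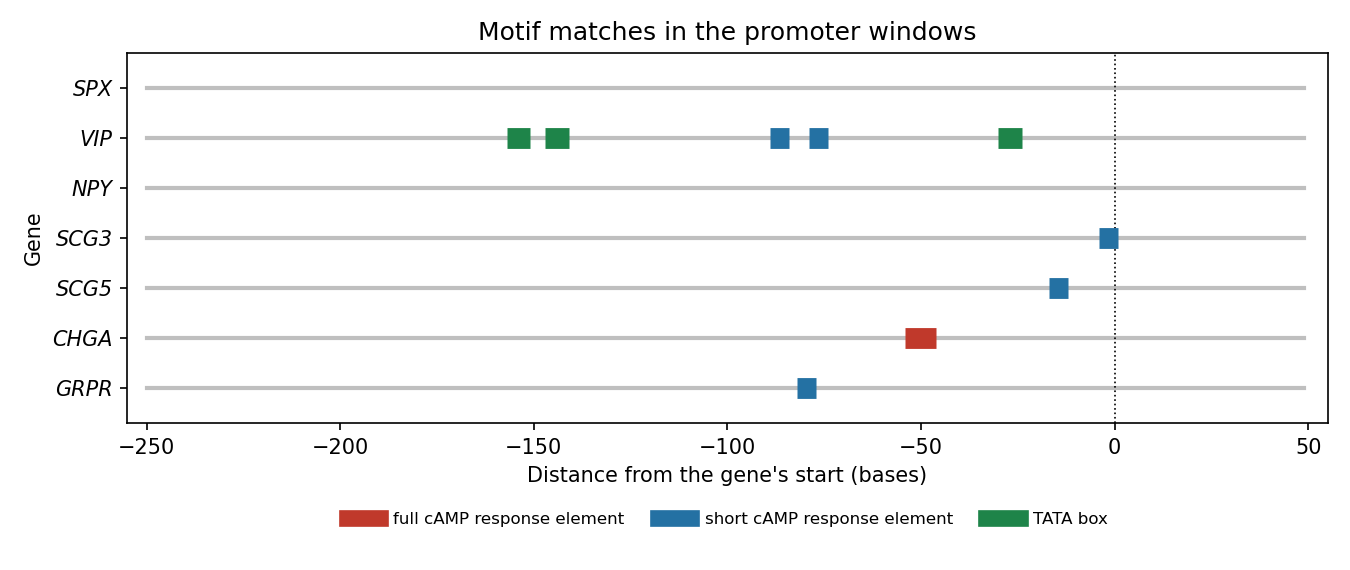
Matches to the cAMP response elements and the TATA box (colored blocks) in the promoter windows of 7 genes (y axis), by distance from the gene's start in bases (x axis). Short forms inside the full element of CHGA are not drawn, and SPX and NPY have no match.

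The genes around the changed members were compared next. They were looked up after the values of the members had been seen, within 1000 kb to either side in the RefSeq gene order. Of 16 measured genes around SPX on chromosome 12, 6 rose and 1 fell (limma, adjusted p under 0.05), where over all genes 19.7% rose and 14.8% fell. GYS2, the liver glycogen synthase gene whose annotated span overlaps that of SPX, had a mean intensity of 129 in control and 153 in treated samples and did not pass the test (adjusted p = 0.0903, limma), but did so without treated replicate 2, at 0.0222, and with the replicate number as a block, at 0.0388. GOLT1B, the next measured gene on the other side, fell by 0.68 on the log2 scale (standard error 0.05, adjusted p = 4.7e-05, limma). Farther out, PYROXD1, an oxidoreductase, rose from a mean of 484 to 1269 (log2 fold change 1.39, adjusted p = 1.9e-05, limma), and ABCC9, which lies beyond LDHB and KCNJ8, rose by 3.22 on the log2 scale (adjusted p = 0.000126, limma). LDHB and KCNJ8, which lie between SPX and ABCC9, did not pass, with -0.04 and -0.20, although KCNJ8 did so as a fall of 0.29 without treated replicate 3 and also with the block (adjusted p = 0.0330 and 0.0430, limma). Around SCG2, VIP and GRPR, 0 of 8, 2 of 6 and 3 of 15 measured genes rose and 2, 1 and 3 fell. The numbers around all of these members, SPX included, are too small to read against the shares over all genes. MYCT1, the nearest measured neighbor of VIP on one side, did not pass, with a log2 difference of 0.10.

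**Figure D4:**
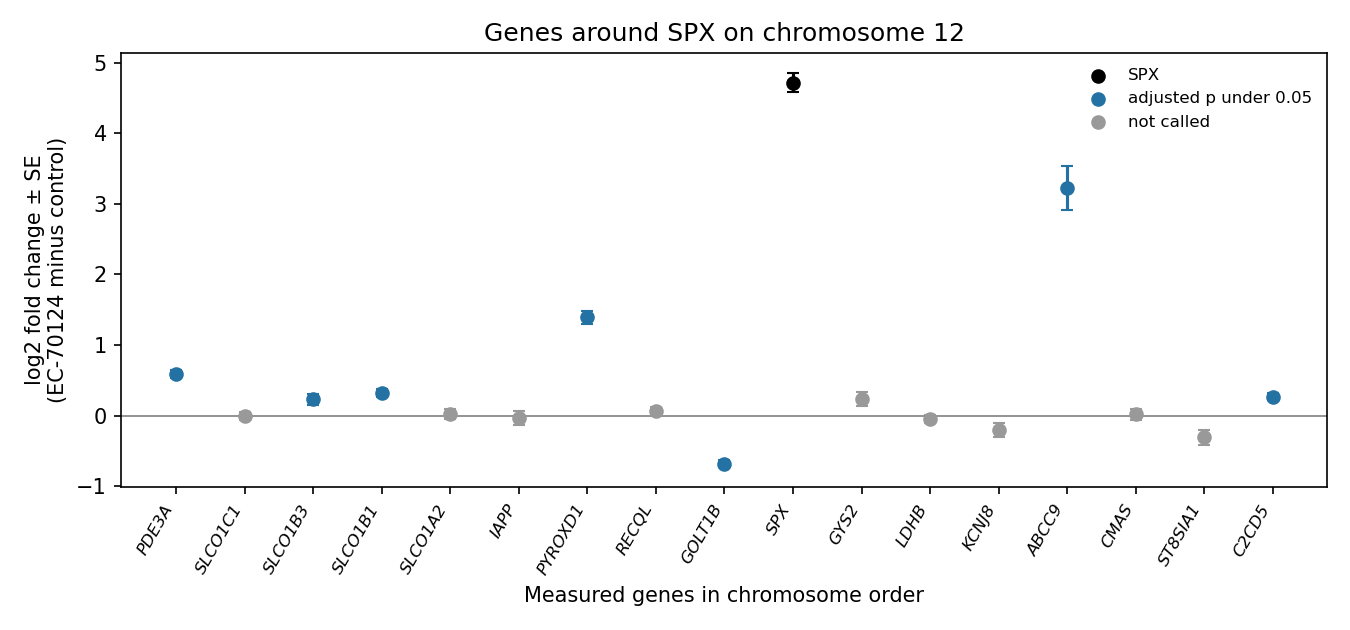
Log2 fold change ± SE (EC-70124 minus control, y axis) of SPX and of the 16 measured genes within 1000 kb, in chromosome order (x axis), blue where limma's adjusted p was under 0.05. SPX (4.72) and ABCC9 (3.22) stand above LDHB and KCNJ8 between them.

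Beyond the members, the data were examined for the receptors, enzymes and secretory machinery that neuropeptides need. Over 9 lists with 202 different measured genes, 32 genes rose (15.8%) and 35 fell (17.3%), against 19.7% and 14.8% of all genes, and their median log2 fold change was -0.03. Among 17 measured receptors of the member peptides or of related peptides and genes of the bombesin family, 1 rose and 2 fell. Of the 17, 8 were past the filter on dim genes. NPY1R, a receptor for neuropeptide Y, had intensities of 212, 230 and 215 in control and 652, 527 and 532 in treated samples. The groups lay well apart, and the log2 fold change was 1.37 (standard error 0.09, adjusted p = 2.1e-05, limma), while the other NPY receptors measured, NPY2R and NPY5R, did not pass, with mean intensities of 364 and 92.6 in control and 362 and 92.9 in treated samples. Of the receptors for opioid-related peptides, OPRL1 fell by 0.32 on the log2 scale (adjusted p = 0.00666, limma) and OPRK1 by 0.18 (adjusted p = 0.0481, limma), a call lost in 8 of the other settings, among them the offset of 50, the replicate block and leaving out any 1 control sample (adjusted p = 0.0562 to 0.162, limma). OPRD1 and OPRM1, on which enkephalins act, had -0.16 each and did not pass. The receptors through which spexin acts, GALR2 and GALR3, had log2 fold changes of 0.17 and -0.04 (adjusted p = 0.0625 and 0.637, limma). GALR2 passed without treated replicate 1 and without the 30% dimmest genes (adjusted p = 0.0320 and 0.0389, limma). The VIP receptors VIPR1 and VIPR2 had 0.05 each. In the bombesin family, neither the ligand genes GRP and NMB, with -0.15 and -0.17, nor the receptor genes NMBR and BRS3 passed, with -0.04 and 0.13, though BRS3 did so as a rise without treated replicate 3 (0.19, adjusted p = 0.0306, limma).

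Few other peptide hormone precursors passed the test. Of 57 measured, 5 rose, 3 fell and 49 did not pass, where over all genes 19.7% rose and 14.8% fell. Of the 57, 36 were past the filter on dim genes, and the shares over all genes were not matched for brightness. RLN2, relaxin, had the largest rise of this list, with intensities of 278, 277 and 301 in control and 584, 498 and 340 in treated samples, a log2 fold change of 0.70 (adjusted p = 0.0144, limma; 0.0510 without control replicate 2). ADM, the vasodilator adrenomedullin, rose by 0.55 on the log2 scale (adjusted p = 0.00284, limma), EDN1, endothelin, by 0.42 and ADM2 by 0.28 (adjusted p = 0.0112, limma; 0.0563 after quantile normalization). For ADM, the treated intensities of 1202, 1278 and 1566 were all above the control range of 884 to 951. The median of the list was -0.05. Of the other genes listed with the granins, VGF, a precursor of several neuropeptides, rose from 666, 674 and 600 to 863, 901 and 852 (log2 fold change 0.43, adjusted p = 0.00114, limma). PCSK1N and GNAS did not pass. GNAS had 1 probe set, so different products of that gene were not told apart.

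Enzymes that process prohormones and enzymes that break down peptides formed 1 list, together with the convertase inhibitor PCSK1N. Of its 17 measured genes, 7 fell, 1 rose and 9 did not pass. Over all genes 14.8% fell and 19.7% rose, and the median log2 fold change of the list was -0.14. CPD, a carboxypeptidase that trims basic residues, went from 4384, 4276 and 4203 to 2625, 2709 and 2446 (log2 fold change -0.73, standard error 0.06, adjusted p = 5.6e-05, limma). PAM, the enzyme that amidates peptide ends, went from 6051, 6202 and 5992 to 4224, 4230 and 3495 (log2 fold change -0.62, adjusted p = 0.000643, limma). In both, every treated sample lay below every control sample. The convertase genes PCSK6 and FURIN fell by 0.69 and 0.42, and CPE, which removes basic residues in granules, by 0.27, a call lost without control replicate 1 or 2 or treated replicate 1 or 3 (adjusted p = 0.0615 to 0.0944, limma). PCSK7 was the enzyme that rose (log2 fold change 0.43, adjusted p = 0.00454, limma). The neuroendocrine convertases PCSK1 and PCSK2 were not analysed here.

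In the machinery of granules and regulated exocytosis, 13 of 44 measured genes fell and 6 rose. Over all genes 14.8% fell and 19.7% rose. RAB3A, a GTPase of secretory vesicles, had intensities of 1341, 1440 and 1273 in control and 412, 481 and 381 in treated samples, a log2 difference of -1.68 (standard error 0.09, adjusted p = 1.1e-05, limma). Its interaction partner RIMS1 fell by 0.98 (adjusted p = 3.6e-05, limma), the priming factor CADPS2 by 0.91 and RAB27A, which docks granules, by 0.70. In the opposite direction, SYT1, the calcium sensor of fast release, went from 1019, 1075 and 1041 to 2366, 2862 and 3453 (log2 fold change 1.45, standard error 0.12, adjusted p = 6.7e-05, limma). VAMP2, a vesicle fusion protein, rose by 0.92 (adjusted p = 3.5e-05, limma) and RIMS2 by 0.89. The list as a whole had a median of -0.02.

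Markers of neuroendocrine and neuronal cells did not rise with SPX, SCG2 and VIP. Of 18 measured, none rose, 2 fell and 16 did not pass, where over all genes 19.7% rose and 14.8% fell. Of the 18, 9 were among the dimmest 30% of genes. ENO2, neuron-specific enolase, fell by 0.76 on the log2 scale (adjusted p = 0.00338, limma) and DBH by 0.29 (adjusted p = 0.0292, limma), the latter lost without control replicate 1 or 3 or treated replicate 1 or 2 (adjusted p = 0.0755 to 0.0976, limma). Synaptophysin (SYP) and INSM1, further markers of neuroendocrine tumors, had mean intensities of 236 and 720 in control and 252 and 718 in treated samples and did not pass. The summed intensity of the list was 9553 to 9814 in the control and 7542 to 8557 in the treated arrays, and most of this difference was that of ENO2, with means of 3434 and 2059. Their part in the changes of the members was not tested.

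Regulators of neuronal and cAMP-responsive genes were mixed. Over all genes, for comparison with the counts below, 19.7% rose and 14.8% fell. REST rose, from 3140, 3167 and 2915 to 4479, 4396 and 3647 (log2 fold change 0.44, standard error 0.09, adjusted p = 0.00527, limma). Of 13 genes of REST and its co-repressors, 2 rose and 3 fell, with RCOR3 at 0.90 and the demethylase gene KDM1A at -0.31. Of 22 genes of the CREB family, its kinase and its coactivators, 9 rose and 3 fell. CREB1 itself rose by 0.44 (adjusted p = 0.000922, limma), the coactivator CREBBP by 0.65 and CREB5 by 0.77, whereas CREB3L2, which acts in the secretory pathway, fell by 0.99 and the kinase subunit gene PRKAR2B fell by 0.74. Of 12 widely used CREB targets, 7 rose and 2 fell, with a median log2 fold change of 0.24. PER1, a clock gene, had intensities of 1180, 1303 and 1122 in control and 4070, 4047 and 2015 in treated samples (log2 fold change 1.42, standard error 0.25, adjusted p = 0.00263, limma), with the third treated sample at the low end. PPARGC1A rose by 0.94, FOS by 0.71 and NR4A2 by 0.66, while FOSB fell by 0.45. The part of these regulators in the changes of SPX, SCG2, VIP and GRPR was not tested.

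**Figure D5:**
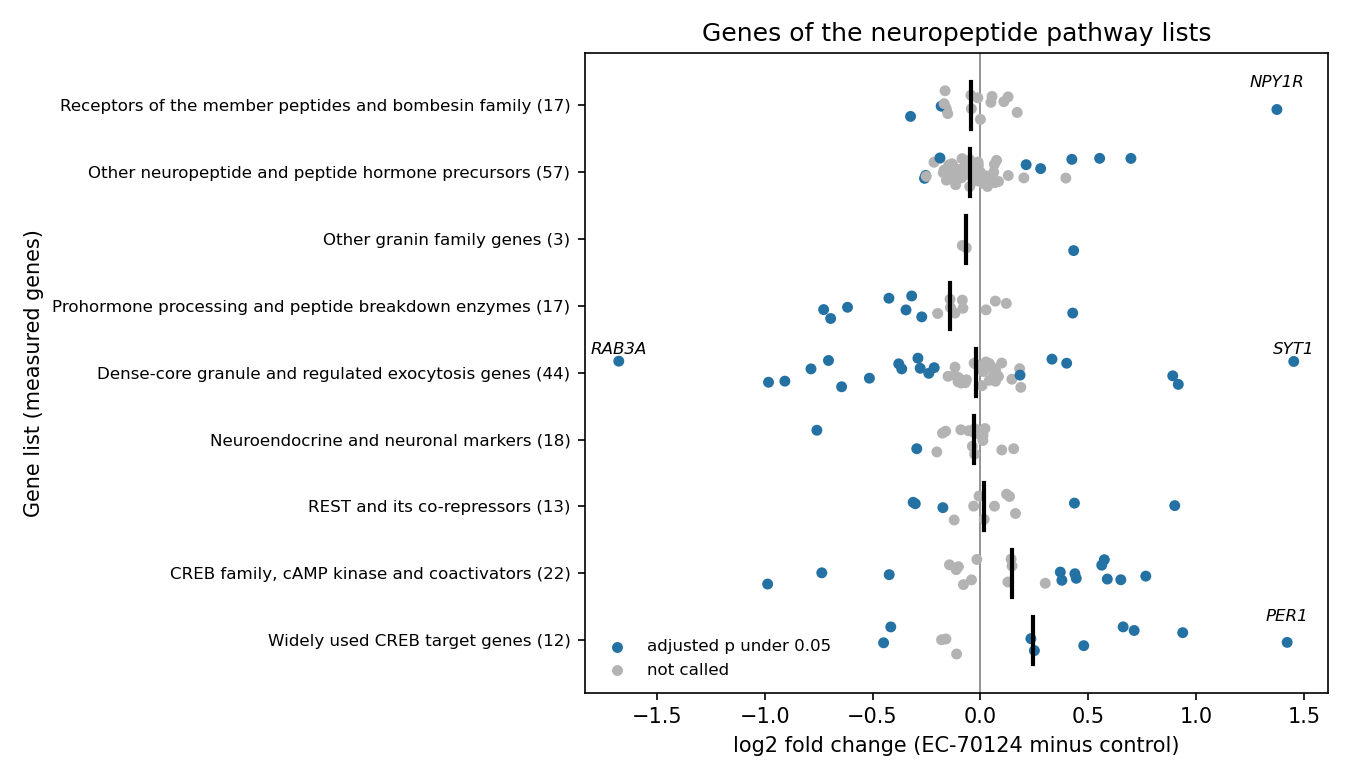
Log2 fold change (EC-70124 minus control, x axis) of every measured gene of 9 lists (y axis, number of genes in parentheses), blue where limma's adjusted p was under 0.05 and gray otherwise, with a black bar at each list's median. Medians run from -0.14 for processing and breakdown enzymes to 0.24 for CREB targets, and NPY1R, SYT1, PER1 and RAB3A lie farthest out.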

How the data were processed

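Total RNA of 3 control and 3 treated MDA-MB-231 samples was hybridized to Human Gene ST arrays. The authors normalized all arrays in dChip by a rank invariant method and deposited model-based expression indices, linear intensities, for 33252 probe sets. The dChip version and its background correction were not given in the sources used here. Each value was set to a floor of 1 and its log2 taken. Of the probe sets, 19460 have 1 gene symbol in the platform annotation, and for each of 18417 genes the brightest on average was kept. Groups came from the sample titles. All genes were fitted with limma 3.58.1 (R 4.3.3), 2-sided, with Benjamini-Hochberg adjustment over all of them and a threshold of 0.05. The precision is limited by the number of arrays, with a median standard error of 0.07 (log2). An exact permutation test of 3 against 3 cannot give a p below 0.1. The members and lists were chosen with earlier results of these data known. Of each list, up to 4 called genes with the largest log2 fold change were named, and any receptor of a member peptide. GNAS, PCSK1N, FURIN, CPE, CADPS2, RAB27A, RIMS2, CREB1, FOSB, SYP, INSM1, the cell line markers and the neighbors were named after their values were seen. Protein sequences were not analysed here. The code was tested on simulated data. Other settings were an offset of 50, quantile and loess normalization, a filter on dim genes, the median over probe sets, an intensity trend, the replicate block and leaving out each sample.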

Additional observations from a re-analysis of the deposited data

How the results depend on the processing

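SPX, SCG2, VIP and GRPR kept their direction in every setting that could measure them, with log2 fold changes of 4.17 to 4.82, 2.74 to 3.47, 2.23 to 3.20 and -2.56 to -2.25. SCG2 and VIP have no value once the 30% dimmest genes are left out. The offset of 50 moved SPX, SCG2 and VIP by more than the pooled SD of both groups, but VIP by less than the spread of its treated samples. CHGB and PENK, which were not called, changed sign in samples left out and ran from -0.14 to 0.08 and from -0.10 to 0.05. Between 5172 and 6835 genes were called over the settings, the most without treated replicate 3. In the reported setting 6353 were called, of which 3631 were higher and 2722 lower. After quantile normalization the split was 3112 higher and 3527 lower, so that 46.9% of the calls were higher in place of 57.2%, and the median of all genes shifted to -0.05. In the 9 lists, 54 to 70 genes were called (27 to 36 higher, 26 to 43 lower), and quantile normalization gave 27 higher and 43 lower. With the replicate number as a block, 6183 genes and 63 list genes were called. Whether the numbers pair the samples cannot be told from so few arrays, whose deviations are tied within each group. The correlations of same-numbered deviations were 0.13, -0.02 and 0.14. The highest of all pairs was that of control 2 with treated 1 (0.15). In 26 single-gene fits a call was lost, for OPRK1, CDH1, DBH, CPE, RLN2 and ADM2, and in 7 one was gained, for GALR2, BRS3, GYS2 and KCNJ8. Besides CHGB and PENK, direction reversed in 9 fits, all of genes that were not called. After quantile normalization VIPR1 stood at -0.033 and NPY5R at -0.029, and after cyclic loess NPY5R at -0.012. With each sample left out in turn, NPY2R ran from -0.082 to 0.074, NPY5R from -0.081 to 0.052 and INSM1 from -0.030 to 0.032. The other 897 single-gene values kept direction and side of the threshold or, for the members, moved by less than the pooled SD. The cause of these changes was not tested. The table used here has no measure of signal over background, which limits dim genes such as SPX, SCG2 and VIP in control cells.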
